A study of Mus musculus with 9 samples.

Results

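The genes described here are the collagens, the laminin chains, the matrix metalloproteinases (Mmp genes) and their inhibitors (Timp genes) in mouse liver. Members were picked by symbol, under a rule set with earlier results of these data known. The rule took Col followed by a number, a and a number, and Lama, Lamb or Lamc with 1 digit. It also took Mmp with a number, and Timp1 to Timp4. The rule found 80 of the 19329 symbols in the tables, 44 collagens, 11 laminin chains, 21 Mmp genes and 4 Timp genes. The livers were those of C57BL/6J mice, a standard inbred strain, here with no added allele and 11 weeks old. The control mice (Chow, n = 5) stayed on standard chow, and the others (HSD, n = 4) ate a high-sucrose diet for 3 weeks from the age of 8 weeks. Each library was 1 whole-liver sample of 1 mouse, so a lower level of a gene from fewer cells of a type and one from less RNA per cell cannot be told apart. The comparison asks which genes of the liver matrix differed between the diets.

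The extracellular matrix of the liver is thin. Fibrillar collagens (types I, III and V) give tensile strength around the portal tracts and central veins, collagen VI forms beaded filaments, and collagens with interrupted triple helices (FACIT collagens such as XII and XIV) sit on the surface of fibrils. Laminins are trimers of an alpha, a beta and a gamma chain and, with collagen IV and the multiplexins XV and XVIII, build basement membranes. Metalloproteinases, some secreted and some held in the plasma membrane, cut these proteins, and Timp proteins block them. Hepatic stellate cells and portal fibroblasts are the best known makers of fibrillar collagen, and collagen XVIII is known to be made by hepatocytes.

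The estimated counts summed to 12769668 to 25913869 per liver, and 12091 genes passed the filter on low counts and were tested with edgeR (the quasi-likelihood test with Benjamini-Hochberg adjustment). One chow liver, Chow 1, stood apart: its mean over 21 acute phase genes was 3.86 log2 units above that of the other chow livers. It was left out, like each other liver in turn, in alternative fits. Levels are given as CPM, the share of a gene in all counts of a liver after TMM scaling, for comparisons between livers, and as TPM, which is corrected for transcript length, for comparisons between genes. On log2(TPM + 1) the median of all genes was itself 0.13 higher on HSD, against -0.00392 in the edgeR fit on counts, so differences in TPM are to be read against that shift.

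At a mean TPM of at least 0.5 over the 9 livers, 37 of the 80 members were detected: 20 collagens, 10 laminin chains, 5 Mmp genes and 2 Timp genes. Of all symbols, 59.8% reached that level. At a mean of at least 0.1 the number was 54, and at 1 it was 30. Within the diets, 35 members reached 0.5 TPM on chow and 39 on HSD. There were 7 members with no count in any liver, the collagen chains *Col2a1*, *Col9a1*, *Col10a1* and *Col19a1*, the proteases *Mmp10* and *Mmp20*, and the inhibitor *Timp4*. A count of 0 allows up to 3 counts, or 0.112 to 0.234 CPM depending on the liver, an allowance for counting error only. It takes the counts as deposited. The other 33 members that were not tested had at most 30 counts in any liver. Among them *Mmp9*, the neutrophil gelatinase, had 2 to 28 counts per liver, *Mmp8*, the neutrophil collagenase, had 0 to 6, and *Timp1*, an inhibitor that rises in injured liver, had 0 to 4. *Col26a1* was detected by TPM (0.996 on average) but had 0 to 11 counts and was not tested.

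Collagen XVIII stood far above the rest. *Col18a1*, which encodes the basement membrane collagen that gives rise to endostatin, had a mean of 331 TPM. The next members were *Mmp19* at 24.5 TPM, *Mmp14* at 17.7 TPM, *Mmp15* at 14.3 TPM, *Col14a1* at 14.1 TPM, *Col4a1* at 9.55 TPM and *Col3a1* at 8.34 TPM. *Mmp15* and *Col14a1* were close, with 11.2 to 16.7 TPM and 8.60 to 18.1 TPM over the livers. Collagen I was low, with 2.61 TPM for *Col1a1* and 3.87 TPM for *Col1a2*. The laminin chain of highest TPM was *Lamc1* at 3.47, beside *Lamb3* at 3.46, *Lamb2* at 2.83 and *Lamb1* at 2.61. These laminin chains overlapped one another over the livers. The alpha chains, which decide which receptors a laminin binds, ran from 0.66 TPM (*Lama2*) to 1.34 TPM (*Lama4*).

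**Figure D1:**
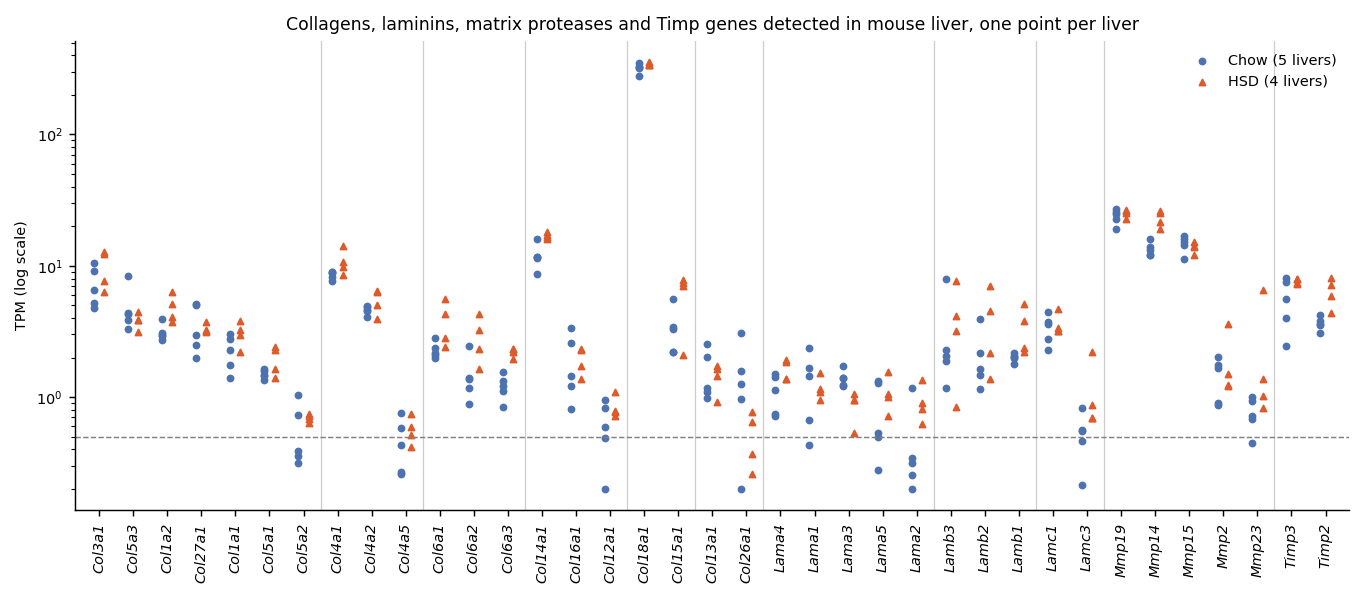
TPM (log axis) of the 37 members with a mean of at least 0.5 TPM (dashed line), grouped by structural class between the vertical lines, with 1 point per liver; 3 points below 0.2 TPM are drawn at 0.2. *Col18a1* lies above all other members in every liver, and the proteases *Mmp19*, *Mmp14* and *Mmp15* lie above every laminin chain.

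*Col18a1* made up 83.3% ± 0.519 (SD, n = 5) of the summed TPM of all 44 collagens on chow and 80.6% ± 1.70 (n = 4) on HSD. The share ran from 82.9% to 84.2% over the chow livers and from 78.5% to 82.5% over the HSD livers. The diets thus did not overlap in TPM, and no test was run on the share. A share within a liver does not depend on how libraries are scaled against each other. The other 43 collagens summed to 64.0 ± 5.11 TPM on chow (57.1 to 70.8) and 83.1 ± 10.8 TPM on HSD (71.9 to 97.4). In CPM neither the share nor this sum separated the diets. There HSD 1 had a higher share of *Col18a1* and a lower sum of the others than Chow 1. *Col18a1* itself had 1292 ± 30.6 CPM on chow and 1226 ± 43.2 CPM on HSD and did not pass the test (-0.08 ± 0.09 SE on the log2 scale, adjusted p = 0.650), and its difference changed sign in the 3 fits on TPM. All laminin chains summed to 16.2 ± 3.00 TPM on chow and 22.2 ± 5.51 TPM on HSD, with overlap between the diets. The Mmp genes summed to 56.4 ± 3.93 TPM (49.5 to 58.9) on chow and 68.7 ± 7.18 TPM (60.8 to 77.7) on HSD. The Timp genes summed to 9.30 ± 2.60 TPM (5.77 to 11.9) and 14.3 ± 1.27 TPM (12.5 to 15.4). Neither of these last sums overlapped between the diets in TPM, where the median of all genes was itself higher on HSD. In CPM both overlapped, at 137 to 173 on chow and 138 to 164 on HSD for the Mmp genes and 21.7 to 41.8 and 39.2 to 45.2 for the Timp genes.

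Of the 40 members tested (20 collagens, 11 laminin chains, 7 Mmp genes and 2 Timp genes), 3 rose with HSD feeding (edgeR, adjusted p under 0.05), against 3.44% of all genes tested, and 1 fell, against 3.23%. In either direction this was 4 members, and 6.67% of all genes. The genes that rose were *Mmp14*, *Col14a1* and *Lama2*, and the gene that fell was *Lama3*. At an unadjusted p under 0.05 there were 13 members with higher and 5 with lower levels, 18 in all, where 12.1% and 11.6% of all genes, together 23.7%, reached that. The log2 fold change was above 0 for 30 of the 40 members (49.6% of all genes), and its median over the members was 0.27, beside -0.00392 over all genes. In CPM, 4 members had every HSD liver above every chow liver (5.84% of all genes) and 1 had every HSD liver below (5.51%). None of the 4 calls held in all 9 fits that left out 1 liver, and the number of members higher on HSD in those fits ran from 0 (without HSD 1) to 4 (without Chow 1). Of all genes, 2.48% were called in either direction without HSD 1 and 8.07% without Chow 1. The number of members higher was 1 without Chow 3, Chow 5, HSD 3 or HSD 4. The sign of the difference was steadier: 33 of the 40 members kept it in every such fit.

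**Figure D2:**
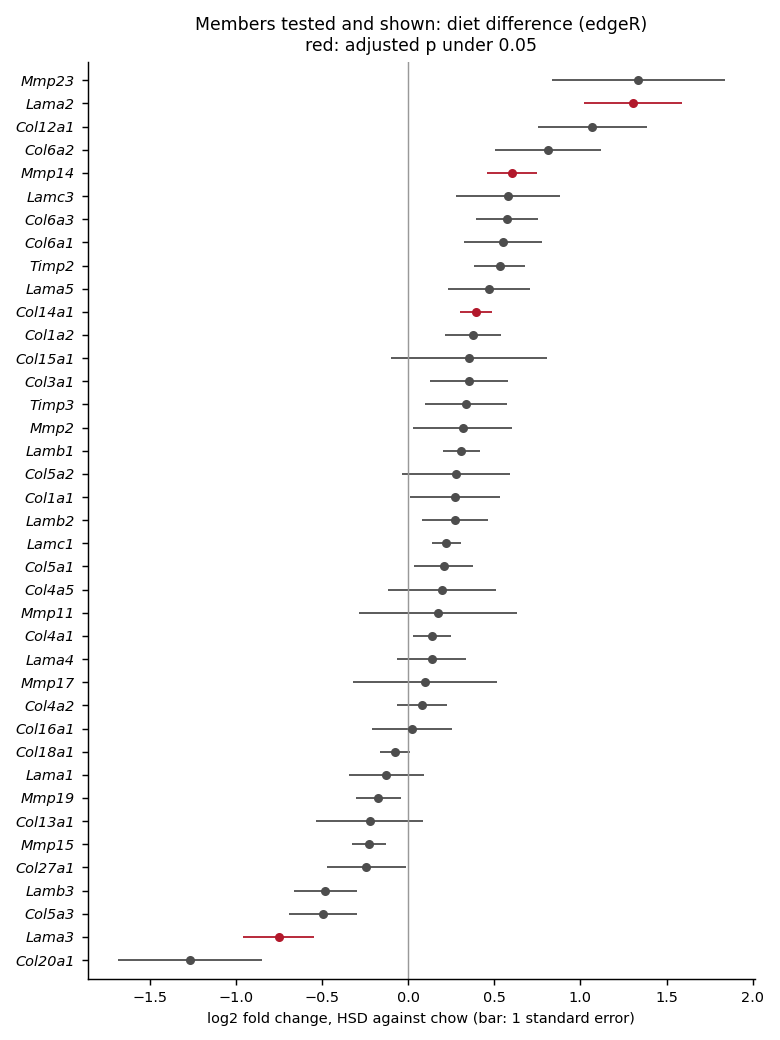
Log2 fold change of HSD against chow for 39 members tested with edgeR; bars are 1 standard error and red marks an adjusted p under 0.05. The 4 red members are *Lama2* (1.30), *Mmp14* (0.60), *Col14a1* (0.40) and *Lama3* (-0.75), and 29 points lie to the right of 0.

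The protease that rose was *Mmp14*. It encodes a collagenase anchored in the plasma membrane that cuts fibrillar collagen and activates the gelatinase encoded by *Mmp2*. In GENCODE's annotation of GRCm38 *Mmp14* lies at chr14:54431612-54445364 on the plus strand. The chow livers had 37.4, 22.5, 27.6, 26.2 and 23.6 CPM and the HSD livers 47.3, 36.0, 44.9 and 38.7 CPM. Only Chow 1, at 37.4 CPM, reached into the HSD range, above HSD 2. The means were 27.5 ± 5.94 CPM (SD, n = 5) and 41.7 ± 5.25 CPM (n = 4), and the log2 fold change was 0.60 ± 0.14 (SE, edgeR adjusted p = 0.0290). In TPM the diets did not overlap, at 12.1 to 16.0 on chow and 19.1 to 26.3 on HSD. Without Chow 1 the log2 fold change was 0.73 and the adjusted p 0.00244. Of the 9 fits without 1 liver, 2 kept the call, those without Chow 1 and without HSD 2, and in the others the adjusted p ran up to 0.0958 (without HSD 1), with a log2 fold change of 0.54 to 0.73 over all 9. *Mmp14* passed in 11 of 12 other settings, the exception being the 6 livers of the first series of library labels (adjusted p = 0.269).

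The promoters of *Mmp14* and *Lama2* are shown because both genes rose, and RefSeq (GRCm38.p6) gives each a start site. No promoter is printed for *Col14a1* or *Lama3*. Each line holds the 250 bases before the RefSeq start on the gene's strand, chr14:54431348-54431597 (plus) for *Mmp14* and chr10:27616943-27617192 (minus) for *Lama2*, with matches in capitals to the GC box GGGCGG, the CCAAT box CCAAT and the TATA box TATAAA, searched on both strands.
Mmp14: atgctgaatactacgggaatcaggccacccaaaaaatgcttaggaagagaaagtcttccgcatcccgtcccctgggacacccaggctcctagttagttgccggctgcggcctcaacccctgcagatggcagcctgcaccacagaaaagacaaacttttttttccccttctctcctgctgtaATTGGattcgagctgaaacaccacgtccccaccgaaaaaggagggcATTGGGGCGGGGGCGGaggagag
Lama2: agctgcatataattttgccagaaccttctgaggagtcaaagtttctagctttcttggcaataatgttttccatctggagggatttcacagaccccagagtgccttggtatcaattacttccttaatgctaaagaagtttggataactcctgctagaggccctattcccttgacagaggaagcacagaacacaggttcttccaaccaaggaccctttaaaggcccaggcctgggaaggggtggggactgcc
The *Mmp14* window held CCAAT boxes, read on the minus strand, at -69 and -23 and GC boxes at -19 and -13 (first base, counted back from the start site), and the CCAAT box at -23 overlapped the GC box at -19. The *Lama2* window held none of these letters. The RefSeq start used for *Lama2* lies 2816 bases inside the gene as GENCODE annotates it, so the window belongs to an internal start site of that annotation. Of 32851 mouse promoters of this length, 32.7% held the GC box, 33.8% the CCAAT box and 12.4% the TATA box. Among 31 promoters of 27 tested members the counts were 17 (54.8%), 10 (32.3%) and 2 (6.45%). A match is a description of the sequence and not a measured binding site.

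*Timp2* encodes an inhibitor that also forms the complex with the *Mmp14* product in which the *Mmp2* product is activated. Its chow livers had 10.6, 12.6, 8.18, 9.67 and 10.8 CPM, and its HSD livers 14.1, 16.5, 17.5 and 11.9 CPM. HSD 4 lay below Chow 2, and the other HSD livers lay above all chow livers. The log2 fold change was 0.53 (standard error 0.15), and the adjusted p from edgeR was 0.0504, just over the threshold. It ran from 0.0365 to 0.130 when 1 liver was left out. *Timp3*, the inhibitor that binds to matrix, had 11.0 to 30.9 CPM on chow and 25.2 to 28.5 CPM on HSD, with Chow 1 lowest, and did not pass (log2 fold change 0.33, adjusted p = 0.433). Of the *Timp3* transcripts' 31-base sequences, 21.9% also occur in other genes, and *Syn3* overlaps it on the other strand. *Timp1* and *Timp4* were too low to test.

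None of the other 6 Mmp genes tested passed. *Mmp19*, a secreted protease and the member second to *Col18a1* in TPM, had 47.3 to 77.3 CPM in chow livers and 45.8 to 58.4 CPM in HSD livers (log2 fold change -0.17, adjusted p = 0.466), a difference that changed sign in the 3 fits on TPM. Its exons overlap *Tmem198b* on the opposite strand and share 26.7% of their 31-base sequences with other genes, so its level is uncertain. *Mmp15*, another membrane-anchored protease, had 51.4 to 69.3 CPM in chow livers and 47.0 to 56.9 CPM in HSD livers (log2 fold change -0.23, adjusted p = 0.186). *Mmp2*, the gelatinase downstream of *Mmp14*, had 1.25 to 3.66 CPM in chow livers and 2.64 to 4.37 CPM in HSD livers (log2 fold change 0.32, adjusted p = 0.550). The remaining proteases were near the lower limit of the test. *Mmp23* had 0.488 ± 0.343 CPM on chow and 1.22 ± 0.506 CPM on HSD (1.33 ± 0.50 SE on the log2 scale, adjusted p = 0.132). *Mmp11*, a stromelysin whose exons overlap *Chchd10*, and *Mmp17*, a lipid-anchored protease, had log2 fold changes of 0.17 and 0.10 with standard errors of 0.46 and 0.42.

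Among the collagens, the FACIT collagen XIV rose. *Col14a1* (chr15:55307750-55520803, plus strand, GRCm38) encodes a collagen that binds the surface of fibrils. The chow livers had 34.9, 41.5, 38.3, 48.1 and 39.8 CPM and the HSD livers 51.9, 55.8, 53.9 and 51.8 CPM. Every HSD liver was above every chow liver, and the HSD livers lay close together. The means were 40.5 ± 4.89 CPM (SD, n = 5) and 53.3 ± 1.91 CPM (n = 4), a log2 fold change of 0.40 ± 0.09 (SE, edgeR adjusted p = 0.0289). The call was kept in the fits without Chow 1, Chow 2 or Chow 4. It was lost without Chow 3, Chow 5 or any HSD liver, with adjusted p up to 0.0716 (without HSD 1) and a log2 fold change of 0.34 to 0.47 over the 9 fits. *Col14a1* passed in 6 of 12 other settings. It was lost with the label series as a covariate (adjusted p = 0.0508), in the first label series alone (adjusted p = 0.266) and in the 3 fits on TPM, where the HSD livers still lay above all chow livers at 16.1 to 18.1 against 8.60 to 15.9 TPM. *Col12a1*, the closest relative of *Col14a1* among the FACIT collagens tested, had 0.825 to 2.18 CPM on chow and 1.91 to 4.06 CPM on HSD. HSD 3 lay just below Chow 3 and Chow 5, and the other HSD livers lay above all chow livers. Its log2 fold change of 1.07 (standard error 0.32) had an adjusted p of 0.0646 from edgeR, and it passed in 4 of 12 other settings. *Col16a1* had a log2 fold change of 0.02 (adjusted p = 0.968). *Col20a1*, with 0.674 to 1.72 CPM on chow and 0.283 to 0.884 CPM on HSD, had the lowest log2 fold change of the members at -1.27 ± 0.42 (SE, adjusted p = 0.0926).

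**Figure D3:**
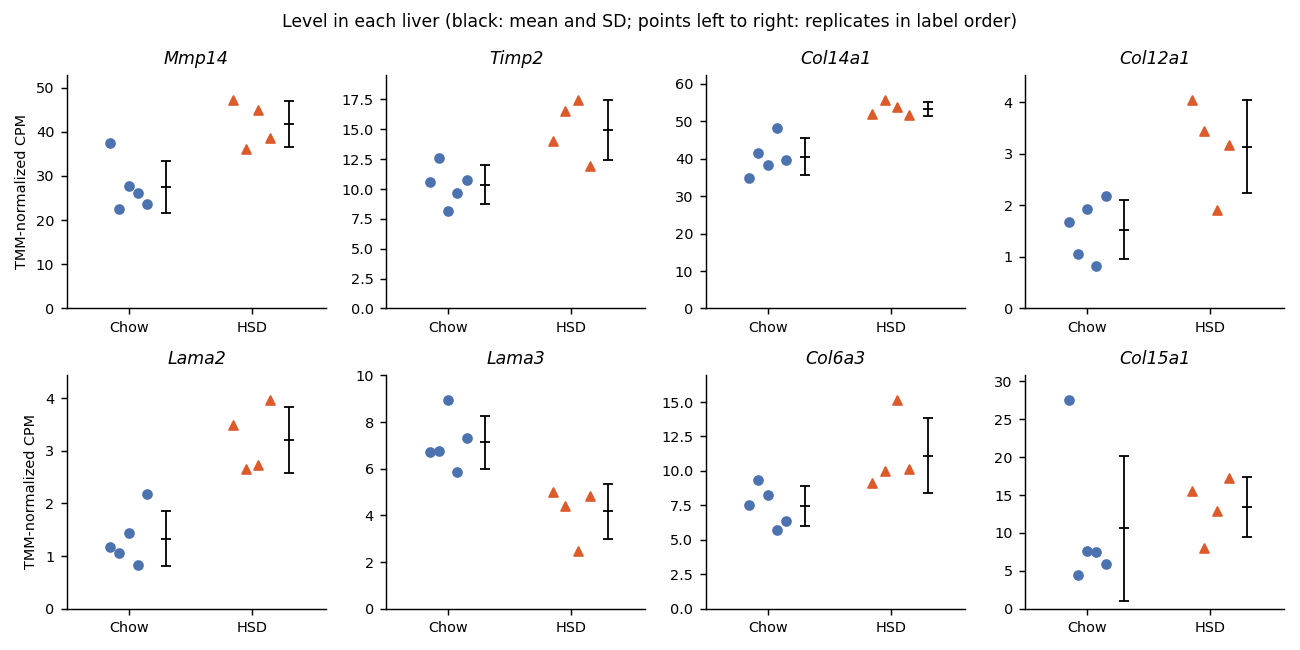
TMM-normalized CPM of 8 members in each of 5 Chow (circles) and 4 HSD (triangles) livers, with the mean and SD of each diet in black. *Col14a1* and *Lama2* are higher and *Lama3* lower in every HSD liver, and for *Col15a1* the first chow liver, at 27.6 CPM, lies far above the others.

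Collagen VI had higher means on HSD in all 3 chains tested, though none passed. The chow livers had 6.07 to 9.46 CPM of *Col6a1*, 3.08 to 8.17 CPM of *Col6a2* and 5.70 to 9.34 CPM of *Col6a3*, and the HSD livers 7.17 to 16.5, 4.90 to 12.7 and 9.15 to 15.2 CPM. HSD 3 was the highest of all livers for each chain. The log2 fold changes were 0.55 ± 0.23 (SE, adjusted p = 0.167), 0.81 (0.31, adjusted p = 0.136) and 0.57 (0.18, adjusted p = 0.0818 from edgeR). Without HSD 3 they were 0.32, 0.58 and 0.39. *Col6a3* passed in 5 of 12 other settings, which were DESeq2, edgeR on library totals and the 3 fits on TPM.

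The fibrillar collagens did not pass either, with 5 of 7 log2 fold changes above 0. *Col3a1*, the most abundant of them in TPM, had 20.0 to 36.6 CPM in chow livers and 20.2 to 43.7 CPM in HSD livers (log2 fold change 0.35, adjusted p = 0.386). *Col1a1* had 5.77 to 15.7 CPM in chow livers and 9.62 to 17.4 CPM in HSD livers (log2 fold change 0.27, adjusted p = 0.579), and *Col1a2* 11.3 to 17.5 and 14.5 to 22.4 CPM (log2 fold change 0.37, adjusted p = 0.188). The collagen I and III values of the diets thus overlapped widely. *Col5a3*, a collagen V chain, went the other way, with 19.3 to 39.0 CPM on chow and 14.6 to 20.4 CPM on HSD (-0.49 ± 0.20 SE on the log2 scale, adjusted p = 0.157). Chow 4 set its upper end, the other chow livers lying between 19.3 and 22.6 CPM, and without Chow 4 the log2 fold change was -0.26. *Col27a1* had a log2 fold change of -0.24 (adjusted p = 0.571).

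Of the basement membrane collagens, *Col4a1* had 33.5 to 44.8 CPM on chow and 37.8 to 48.9 CPM on HSD, with a log2 fold change of 0.14 (adjusted p = 0.490). *Col4a2*, whose start site lies beside that of *Col4a1* on the other strand of chromosome 8 so that the annotated genes overlap by 22 bases, had 21.7 to 29.9 and 19.0 to 32.0 CPM (log2 fold change 0.08, adjusted p = 0.792). *Col4a5* had a log2 fold change of 0.20 (adjusted p = 0.755). Collagen IV thus showed no difference beyond the spread between livers. *Col15a1*, the second multiplexin, depended on a single liver in CPM. It had 27.6 CPM in Chow 1, 4.44, 7.60, 7.42 and 5.93 CPM in the other chow livers and 15.6, 8.05, 12.8 and 17.2 CPM on HSD. With Chow 1 its log2 fold change was 0.35 ± 0.45 (SE, edgeR adjusted p = 0.688). Without Chow 1 it was 1.06 ± 0.23 (SE, edgeR adjusted p = 0.0175), and every HSD liver lay above the 4 other chow livers in CPM. In TPM that order did not hold, as HSD 2, at 2.08 TPM, lay below every chow liver. The other HSD livers, at 7.03 to 7.84 TPM, lay above every chow liver, Chow 1 included at 5.62 TPM. The transmembrane collagen *Col13a1* had a log2 fold change of -0.22 (adjusted p = 0.712).

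Laminin chains differed in direction. *Lama2* (chr10:26980036-27619758, minus strand, GRCm38), the alpha chain of muscle and nerve basement membranes, had 1.16, 1.05, 1.44, 0.825 and 2.18 CPM in the chow livers and 3.49, 2.65, 2.73 and 3.97 CPM in the HSD livers. Every HSD liver was above every chow liver. The means were 1.33 ± 0.525 CPM (SD, n = 5) and 3.21 ± 0.630 CPM (n = 4), a log2 fold change of 1.30 ± 0.28 (SE, edgeR adjusted p = 0.0201), on 18 to 100 counts per liver. The call was lost without HSD 1 (adjusted p = 0.0699) and without HSD 4 (adjusted p = 0.0756) and kept in the other 7 fits without 1 liver, with a log2 fold change of 1.16 to 1.52. In TPM the diets overlapped through Chow 5, which at 1.18 TPM exceeded HSD 1, HSD 2 and HSD 4, and the gene did not pass on that scale. *Lama2* passed in 8 of 12 other settings, the exceptions being the fits on TPM and the first label series alone (edgeR adjusted p = 0.116).

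*Lama3*, on chromosome 18, encodes the alpha chain of the laminin that anchors epithelia, in which it is joined by the beta chain of *Lamb3*. The chow livers had 6.73, 6.77, 8.95, 5.85 and 7.33 CPM and the HSD livers 5.00, 4.42, 2.46 and 4.84 CPM. Every HSD liver was below every chow liver, HSD 3 lowest. The means were 7.13 ± 1.15 CPM (SD, n = 5) and 4.18 ± 1.17 CPM (n = 4), a log2 fold change of -0.75 ± 0.20 (SE, edgeR adjusted p = 0.0479). The call was kept without Chow 1 (adjusted p = 0.0492) and lost without any other liver, with adjusted p up to 0.0968 and a log2 fold change of -0.84 to -0.58. It passed in 4 of 12 other settings. *Lamb3* had 3.39 to 4.72 CPM on chow and 2.38 to 3.55 CPM on HSD. Its log2 fold change of -0.48 did not pass the test (adjusted p = 0.134), and it changed sign in the 3 fits on TPM.

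The common beta and gamma chains *Lamb1* and *Lamc1* had small differences. In both, every HSD liver lay above every chow liver in CPM, as in 5.84% of all genes tested. *Lamc1* had 14.3 to 17.5 CPM on chow and 18.5 to 19.4 CPM on HSD (0.22 ± 0.09 SE on the log2 scale, adjusted p = 0.140). *Lamb1* had 7.71 to 9.67 CPM on chow and 9.68 to 11.7 CPM on HSD (0.31 ± 0.11 SE on the log2 scale, adjusted p = 0.113). Neither gene passed. For *Lamb1* the gap between the diets was negligible, from 9.670 CPM in Chow 5 to 9.675 CPM in HSD 4. In TPM *Lamc1* overlapped, at 2.28 to 4.43 on chow and 3.17 to 4.68 on HSD. *Lamb2* (log2 fold change 0.27, adjusted p = 0.433), *Lamc3* (0.58, adjusted p = 0.272), *Lama5* (0.47, adjusted p = 0.258), *Lama4* (0.14, adjusted p = 0.729) and *Lama1* (-0.13, adjusted p = 0.774) overlapped between the diets.

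A single liver, HSD 3, often had the highest level. It was the highest of the 9 livers in 17 of the 40 members tested, where each other liver was highest in 1 to 5. The same count was not made over all genes, so whether this was particular to the members was not tested. Among the 33 untested members above 0 it was highest in 7, as was Chow 5. HSD 3 had 14040723 counts, the second lowest total. Without HSD 3, 1 member rose (*Lama2*) and none fell by edgeR, with 11 members at an unadjusted p under 0.05. Of all genes, 3.92% were called in that fit, against 6.67% with all livers. The median log2 fold change of the 40 members was 0.21.

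Chains that are built into the same molecule or fibril were compared within each liver. Over the 7 ratios of TPM examined, none differed between the diets by an exact two-sided permutation test (adjusted p of 0.417 to 0.929), in which 5 against 4 livers allow a p no smaller than 0.0159. The *Col1a1* to *Col1a2* ratio was 0.476 to 0.905 over the livers, and the *Col4a1* to *Col4a2* ratio was 1.33 to 2.47 with a median of 1.94. The *Lamb1* to *Lamc1* ratio ran from 0.491 to 0.896 on chow and from 0.697 to 1.51 on HSD (difference in log2 ratio 0.55, p = 0.0714, adjusted p = 0.417 by the exact permutation test). That difference belongs to the TPM scale. In the edgeR fit on counts the log2 fold changes of *Lamb1* and *Lamc1* were 0.31 and 0.22. Their counts divided by TPM varied 2.06-fold and 1.76-fold over the livers, a spread described further below. The *Col6a1* to *Col6a2* ratio ran from 1.17 to 2.38 on chow and from 1.21 to 1.48 on HSD (p = 0.119, adjusted p = 0.417 by the exact permutation test). With 7 ratios, a single ratio at the smallest p could not fall below an adjusted p of 0.111, so the adjusted values say little about any 1 ratio.

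Over the 9 livers, 3 of the 7 pairs varied together on log2(CPM + 0.1). For *Col6a1* and *Col6a2*, Pearson's r was 0.922 (exact permutation p = 9.65e-05, adjusted p = 0.000675) and Spearman's rho 0.917 (exact permutation p = 0.00131, adjusted p = 0.00918). Without the 2 livers farthest from the median of *Col6a1*, HSD 2 and HSD 3, r was 0.857 (exact permutation p = 0.0141). For *Col1a1* and *Col3a1*, r was 0.839 (exact permutation p = 0.00261, adjusted p = 0.00913), rho was 0.833 (exact permutation p = 0.00827, adjusted p = 0.0193), and r without Chow 4 and Chow 5 was 0.873. For this pair Chow 3, Chow 4, Chow 5 and HSD 1 lay low in *Col3a1* and the other 5 livers high, with a gap between them, so the relation could not be tested within either cluster. For *Col1a1* and *Col1a2*, r was 0.815 (exact permutation p = 0.00651, adjusted p = 0.0152) and rho 0.883 (exact permutation p = 0.00308, adjusted p = 0.0108), but without Chow 4 and Chow 5 r was 0.712 over the remaining 7 livers and no longer passed (exact permutation p = 0.0710). The pairs *Col4a1* with *Col4a2*, *Col5a1* with *Col5a2*, *Lamb1* with *Lamc1* and *Lamb2* with *Lamc1* had r of 0.555, 0.440, 0.594 and 0.716 (exact permutation, adjusted p of 0.141, 0.237, 0.127 and 0.0518) and rho of 0.517, 0.60, 0.75 and 0.583 (exact permutation, adjusted p of 0.162, 0.126, 0.0446 and 0.126). The rho of *Lamb1* with *Lamc1* thus passed where r did not. In both of these genes the diets lay apart in CPM, barely so in *Lamb1*, and over the 5 chow livers alone r was -0.64, a value with no test. With 5 and 4 livers, neither diet held enough livers for a correlation of its own.

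**Figure D4:**
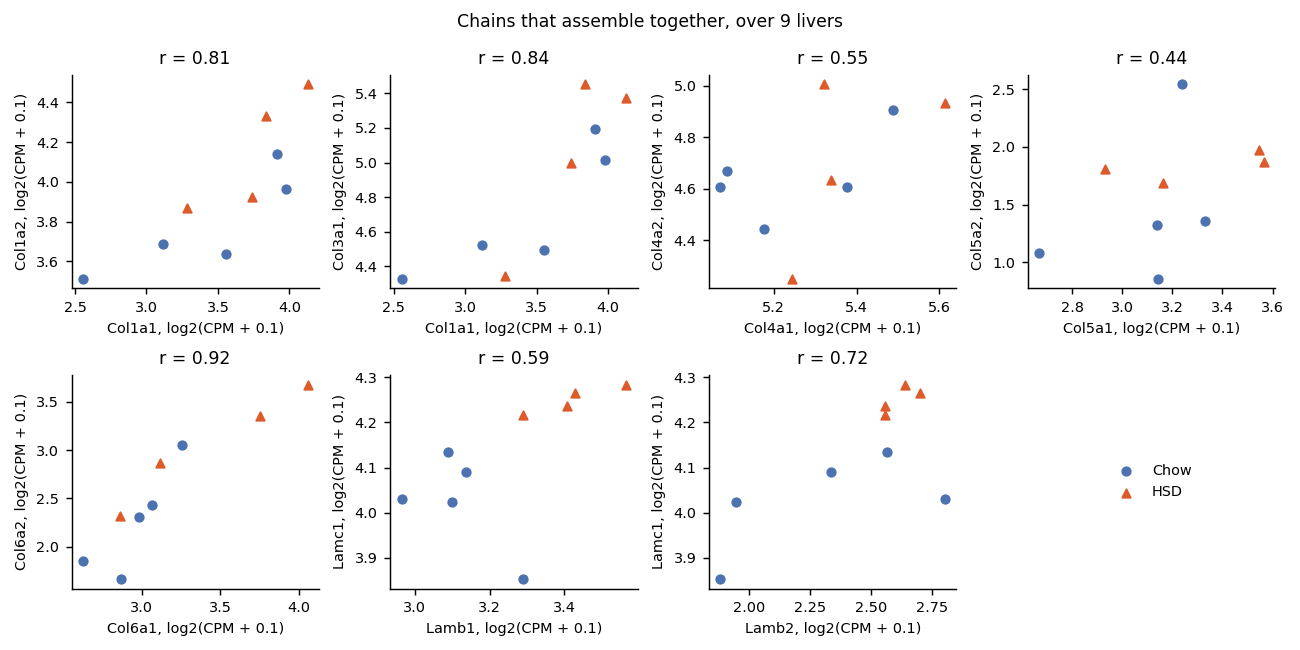
The 7 pairs of chains over 9 livers, each axis log2(CPM + 0.1) of 1 gene, with Chow as circles, HSD as triangles and Pearson's r above each panel. The points of *Col6a1* and *Col6a2* lie nearest to a line (r = 0.92), and those of *Col5a1* and *Col5a2* scatter most (r = 0.44).

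Genes that act with the matrix proteins were counted by list. The lists were chosen with earlier results of these data known, so their counts describe them and do not test them. For all lists below, the shares over all genes tested were 3.44% risen and 3.23% fallen. At an unadjusted p under 0.05 they were 12.1% higher and 11.6% lower. Every HSD liver was above every chow liver in 5.84%. Among 10 basement membrane partners, 3 rose and none fell, and all 10 were tested. The nidogens, which bridge laminin and collagen IV, were 2 of them: *Nid2* went from 7.05 ± 1.67 to 12.9 ± 1.95 CPM (log2 fold change 0.86, adjusted p = 0.0164 from edgeR) and *Nid1* from 12.1 ± 2.11 to 17.1 ± 1.76 CPM (0.49, adjusted p = 0.0459). The third was *Hspg2*, which encodes the heparan sulfate proteoglycan perlecan (log2 fold change 0.39, adjusted p = 0.0362). In all 3 genes every HSD liver lay above every chow liver, and 7 of the 10 had an unadjusted p under 0.05, all higher. For *Nid1* the gap was negligible, from 15.33 CPM in Chow 4 to 15.37 CPM in HSD 1. The list's median log2 fold change was 0.34. *Nid2* passed in 8 of the 9 fits without 1 liver, the exception being HSD 1 (adjusted p = 0.0656), while *Hspg2* passed in 2 (adjusted p up to 0.111) and *Nid1* in 1, that without Chow 4 (up to 0.120).

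Of 14 matrix receptors tested out of 16, 2 rose and none fell, and in 6 every HSD liver was above every chow liver. *Itgav*, the integrin alpha V chain, went from 16.5 ± 3.00 to 25.3 ± 2.75 CPM (log2 fold change 0.61, adjusted p = 0.0193 from edgeR) and *Dag1*, the laminin receptor dystroglycan, from 89.0 ± 5.56 to 114 ± 8.38 CPM (0.36, adjusted p = 0.0279). *Itgav* was lost without HSD 1 or HSD 4 (adjusted p up to 0.0726), and *Dag1* passed in 4 of the 9 fits without 1 liver (up to 0.0951). The list's median log2 fold change was 0.35. Among 17 interstitial matrix proteins tested out of 19, only *Tnxb*, which encodes tenascin X, rose, from 10.1 ± 1.77 to 19.1 ± 3.80 CPM (log2 fold change 0.92, adjusted p = 0.00740), and it passed in all 9 fits without 1 liver. None of that list fell, and its median was 0.14.

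The proteins that fold, modify and trim collagen were counted next. Of 17 genes of collagen folding and modification tested out of 18, none rose and *Ppib*, which encodes the prolyl isomerase cyclophilin B of the endoplasmic reticulum, fell by 0.59 on the log2 scale (adjusted p = 0.0380 from edgeR), passing in 3 of the 9 fits without 1 liver (up to 0.122). The median of that list was 0.02, and 5 of the 17 had an unadjusted p under 0.05. None of 9 genes of propeptide cleavage and cross-linking tested out of 13 passed by edgeR, 2 of them having an unadjusted p under 0.05. Of 19 other proteases and inhibitors tested out of 26, none rose and *Serpinf2*, which encodes the plasmin inhibitor of the blood, fell by 0.54 on the log2 scale (adjusted p = 0.0366), also passing in 3 of the 9 (up to 0.119). TGF-beta and PDGF signalling are pathways known to drive collagen genes in stellate cells. Of 21 genes of that list tested out of 23, only *Smad4* rose (log2 fold change 0.38, edgeR adjusted p = 0.0158), and none fell. The rest of that list was not found among the symbols. *Smad4* passed in 7 of the 9 fits without 1 liver (up to 0.0642, without HSD 1).

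Markers of the cells that could make these genes were counted on the same fit. None of 10 stellate cell, 3 myofibroblast, 4 portal fibroblast, 8 sinusoidal endothelial, 5 vascular endothelial, 5 cholangiocyte, 7 Kupffer cell or 3 mesothelial markers tested passed by edgeR, and the numbers with an unadjusted p under 0.05 were 2, 0, 2, 1, 0, 2, 4 and 1. No neutrophil marker of 8 was high enough to test, 2 of them had no count in any liver, and their summed CPM was 0.584 to 3.75 on chow and 0.0793 to 0.546 on HSD. Summed CPM of the stellate cell markers was 210 to 288 on chow and 256 to 328 on HSD, and that of the cholangiocyte markers 30.0 to 73.5 and 44.5 to 68.8. The Kupffer cell markers summed to 144 to 331 CPM on chow and 88.7 to 176 CPM on HSD, all 7 with log2 fold changes below 0. For the 8 cell types with a tested marker named so far, the summed markers of the diets overlapped. Those of red blood cells did not, at 182 to 459 CPM on chow and 115 to 158 CPM on HSD, but the other 5 red blood cell markers without *Alas2* did overlap, at 35.0 to 288 and 46.4 to 99.5 CPM. Hepatocyte markers had 1 of 6 lower (*Serpina1a*, log2 fold change -0.38, adjusted p = 0.0475, passing in 1 of the 9 fits without 1 liver), and red blood cell markers 1 of 5 lower (*Alas2*, log2 fold change -1.14, adjusted p = 0.000160, passing in all 9). The 10 stellate cell genes ran from a log2 fold change of -0.32 for *Ngfr* (adjusted p = 0.308) to 0.60 for *Lrat* (adjusted p = 0.0748), 7 of them above 0, with a median of 0.16. Of 21 acute phase genes, none passed by edgeR, and 13 had a lower level on HSD at an unadjusted p under 0.05 in the fit that holds Chow 1. The part of cell composition and of the acute phase in the differences above was not tested.

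For some members the deposited counts and TPM did not follow each other. A read count divided by TPM depends on the transcript lengths to which kallisto assigned the reads of a gene, and was scaled in each liver. Its highest value over the livers exceeded its lowest by 1.21-fold at the median of all genes tested and by 1.64-fold at the median of the members. The spread was 1.11-fold for *Mmp14*, 1.10-fold for *Col14a1* and 1.23-fold for *Lama3*, but 2.94-fold for *Lama2*. It reached 7.60-fold for *Lamb3*, a value that 0.629% of all genes exceeded, 5.60-fold for *Lama5*, 5.23-fold for *Col12a1* and 5.04-fold for *Lamb2*. *Lamb3* ran from 2.38 to 4.72 CPM over the livers but from 0.845 to 7.92 TPM, with Chow 4 and HSD 3 at the top in TPM. The level of these chains per length was thus less certain than their CPM, and the part of isoform assignment in this was not tested.

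**Figure D5:**
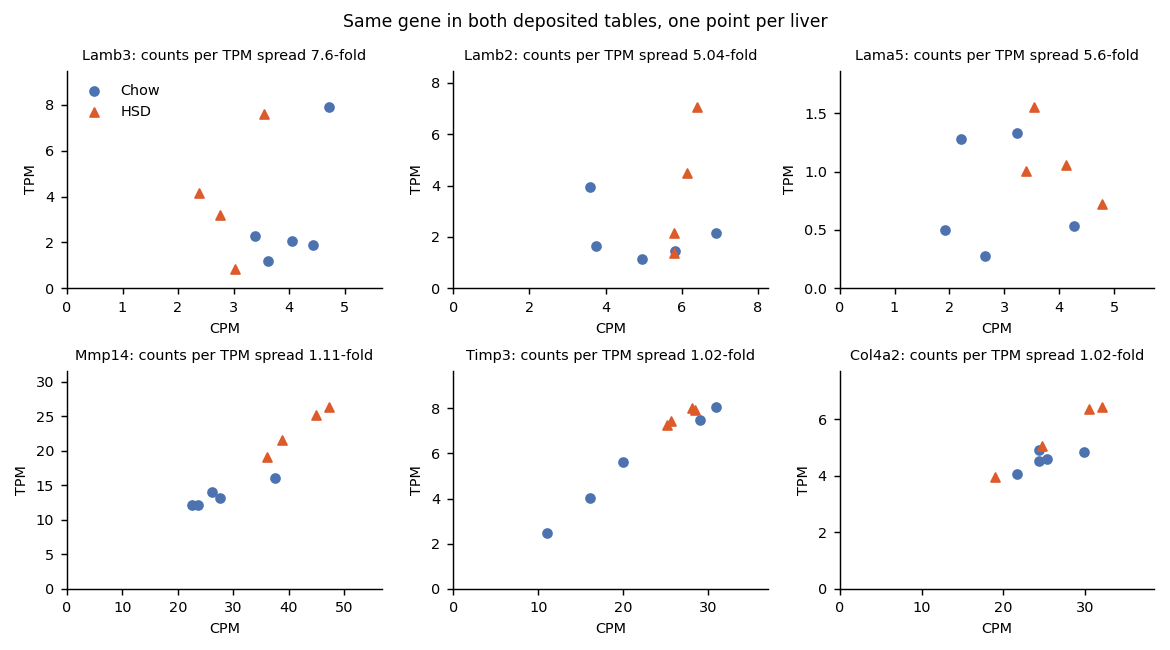
CPM (x axis) against TPM (y axis) of 6 members, 1 point per liver, Chow as circles and HSD as triangles, with the fold range of counts per TPM in each title. *Mmp14*, *Timp3* and *Col4a2* vary together on both axes, while *Lamb3*, *Lamb2* and *Lama5* scatter (7.6, 5.04 and 5.6-fold).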

How the data were processed

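RNA-seq of liver from 5 Chow and 4 HSD mice was analysed, grouped by the diet in the labels. The authors made poly-A libraries and ran kallisto (GRCm38 in the submitters' processing notes; its version and annotation release: not given in the sources used here). Estimated counts that the authors deposited are listed by gene symbol, beside TPM values from the authors, which sum to 923061 to 945110 per library over the symbols listed. Of the values above 0 in the estimated counts, 34.1% were whole, and 99.1% of those were even, so the counts were also halved as an alternative. No library was a repeat of another of its diet: in 16 pairs of the same diet, chi-square per degree of freedom was 14.6 to 249. Pairs across the diets were not compared.

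After rounding, genes passing filterByExpr (at least 10 counts, 15 in total) were tested with the quasi-likelihood test of edgeR 4.0.16 (R 4.3.3) after TMM scaling, with diet as the factor (7 residual degrees of freedom, biological coefficient of variation 0.187). Genes with an adjusted p under 0.05 over all 12091 genes were called. The test was checked on simulated counts. It called 10 of 18 members changed by 1 log2 unit and 1 of 22 changed by 0.5. A member that did not pass may thus still differ. The precision of a value is set by its counts, from 12769668 to 25913869 in total per liver as deposited, and by the number of livers. Positions, overlaps and shared 31-base sequences came from GENCODE's annotation of GRCm38, which held all 80 members, and promoters from RefSeq.

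The members and all lists were chosen with earlier results of these data known. Named were called members, the 3 members of highest TPM in each class, the 5 largest and 5 smallest fold changes, all Timp and tested Mmp genes, and up to 3 called genes per list; *Lrat*, *Ngfr*, *Mmp8*, *Mmp9* and other genes outside this rule were named after their values were seen. Alternatives were DESeq2 1.42.0, limma voom (limma 3.58.1), other size factors, library totals, no filter, limma on log2 TPM, a replicate block, the label series, each liver left out, an adjusted p under 0.01 and halved counts. The library labels fall into 2 series, the first with 4 Chow and 2 HSD livers; their meaning is not stated. No column was left unused (0 columns). Of the tested members, 1 is in the counts but not reported here by name.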

Additional observations from a re-analysis of the deposited data

Results flagged for a closer look

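In 8 of the groups of livers examined (6.35%), there was a liver far from the others of its diet, where chance gives about 1 in 20. Values are log2 CPM in that liver minus the mean of the other livers of its diet. Among the members, *Col5a3* was 0.902 higher in Chow 4, and the mean of the laminin alpha chains was lower in HSD 3 (-0.203). Among the lists, the mean of the matrix receptors was lower in Chow 5 (-0.12), acute phase genes were 3.86 higher in Chow 1 and lower in HSD 4 (-0.211), cholangiocyte markers were 0.853 higher in Chow 1, Kupffer cell markers were lower in HSD 4 (-1.03), and red blood cell markers were 2.12 higher in Chow 2. The values of Chow 1 for *Col15a1* and *Mmp14* are given beside those genes in the report, with and without that liver.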

How the results depend on the processing

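With so few livers the number of members called depended on the fit, and no member's call turned its direction. The 3 members higher and 1 lower became 6 and 1 with DESeq2 (which added *Col12a1*, *Col6a3* and *Timp2*), 6 and 0 with library totals, 4 and 0 with limma voom, 5 and 1 with halved counts (35 members tested), 3 and 0 on log2(TPM + 1), 2 and 0 on log2(TPM + 0.1) and on log2(TPM + 1) without a filter, 2 and 0 with the label series as a covariate, 0 and 0 in label series 1 alone, where fewer livers were tested, and 0 and 0 at an adjusted p under 0.01. Leaving out 1 liver gave 0 to 4 higher and 0 to 1 lower. The count of all genes higher on HSD (416) and that of all genes lower on HSD (391) became 632 and 663 with DESeq2, 15 and 19 in label series 1, and 97 and 112 at an adjusted p under 0.01; the lower count became 254 with library totals and 81, 58 and 72 in the same 3 fits on TPM. Leaving out 1 liver gave 153 to 475 higher and 149 to 493 lower. The cause of these changes was not tested. Livers with the same replicate number did not deviate together (correlations of 0.0457, 0.0661, -0.0609 and 0.0447), so the numbers do not pair livers; with the replicate block, 2 members were higher and 0 lower (adjusted p = 0.0840 for *Col14a1* and 0.141 for *Lama3*), and 220 and 205 of all genes. The correlation of Col1a1 and Col1a2 was 0.743 and the correlation of Col1a1 and Col3a1 was 0.620 on log2(TPM + 0.1), neither past the threshold. Without 1 liver, the correlation of Col1a1 and Col1a2 ran from 0.766 to 0.872, the correlation of Lamb2 and Lamc1 from 0.472 to 0.934, highest without Chow 2, and the correlation of Lamb1 and Lamc1 from 0.472 to 0.936, highest without Chow 5. For single genes, 855 of the values under other settings stayed on the same side of the threshold. These 855 include values that changed sign where neither fit called the gene. Another 148 no longer passed, 16 newly passed, and none of the called values turned its sign.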
